A study of Homo sapiens with 6 samples.

Results

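The olfactory receptor genes were examined in ChIP-seq libraries of G401 cells. This human line from a rhabdoid tumor of the kidney has lost SMARCB1, a subunit of the SWI/SNF chromatin remodeler. Receptor genes were taken as the rows of the count table whose name is OR, a family number, subfamily letters and a member number with no P for pseudogene, and whose input counts summed to more than 0. Of 56638 rows, 402 had such a name and 303 also had input counts. Of the 302 with a position, the annotation calls 298 protein-coding and 4 pseudogenes. The other 99 rows had no input counts, and 97 of them were at 0 in all 6 libraries. Of the 96 with a position in the annotation, 74 had no base that another gene did not also cover.

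G401 cells carried no engineered change in these libraries and were treated for 3 days with DMSO, the solvent control, or with 3 µM MAK683. MAK683 binds EED, the subunit of Polycomb repressive complex 2 (PRC2) that recognizes H3K27me3, and blocks methylation of histone H3 at lysine 27 by the complex. For each treatment there was 1 library of H3K27me3, 1 of H3K4me3 and 1 of input, which is chromatin sequenced without an antibody, all from a single tumor line in culture. No value below therefore has a replicate check. Intervals are 95% intervals that cover counting error only, and no p-value was computed. The 6 libraries held 13308099 to 21281877 reads in genes, and SMARCB1 had 0 input counts in both treatments, as a deleted gene would, although 33.3% of all rows were also at 0 in all 6 libraries. In chromatin of many cells, a mark on fewer cells and less of the mark per cell cannot be told apart.

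Olfactory receptors are G protein-coupled receptors that detect odorants in the nose and form the largest gene family in the human genome. Their genes lie in clusters, most have an intronless coding exon, and a mature olfactory sensory neuron expresses 1 allele of 1 gene while it keeps the others silent. In mouse olfactory neurons the silent receptor clusters are packed into constitutive heterochromatin that carries H3K9me3 and H4K20me3. H3K27me3 is the repressive mark laid down by PRC2, which favours CpG-rich promoters of developmental genes, and H3K4me3 marks active and CpG-rich promoters. Most receptor genes are silent outside the nose, and the question here is how both marks lie over clustered, CpG-poor genes before and after PRC2 is inhibited.

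The promoters of the receptor genes held few CpG dinucleotides. In the 300 bases from 250 before to 50 after the annotated start (GRCh37, GENCODE release 44), 302 members with a position had a median GC content of 38.3% and a median of 1 CpG. The 19164 protein-coding genes had medians of 60.3% and 18 CpG, and 39 HOX genes, textbook targets of PRC2, had medians of 56.3% and 15. At most 3 CpG were found in 87.7% of receptor promoters, against 16.2% of protein-coding ones and none of the HOX ones. At least 15 CpG were found at 4 members (1.32%), OR3A2, OR56A3, OR10Q1 and OR11H2, against 57.3% of protein-coding genes. The letters CCCNNGGG, a core sequence read by EBF factors, were present on either strand in 7.95% of receptor promoters and 20.1% of protein-coding ones. The motif reads the same on both strands, and a match describes letters and not binding.

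The following 250 bases upstream of 3 members are shown because they frame the comparisons below, with every CG in capitals and read 5′ to 3′ on the strand of the gene from the GRCh37 genome. OR5M9 (chr11:56230878-56231127, minus strand) belongs to the receptor cluster with the lowest H3K27me3 in DMSO once genes counted over a wide span are left out. OR8A1 (chr11:124436306-124436555, plus strand) belongs to the cluster with the highest, and OR3A2 (chr17:3289612-3289861, minus strand) had the most CpG of all members.
OR5M9: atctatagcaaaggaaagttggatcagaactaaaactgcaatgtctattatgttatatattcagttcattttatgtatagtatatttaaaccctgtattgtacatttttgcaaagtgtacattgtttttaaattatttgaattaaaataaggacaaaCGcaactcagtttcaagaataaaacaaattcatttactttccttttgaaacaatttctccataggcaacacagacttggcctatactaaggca
OR8A1: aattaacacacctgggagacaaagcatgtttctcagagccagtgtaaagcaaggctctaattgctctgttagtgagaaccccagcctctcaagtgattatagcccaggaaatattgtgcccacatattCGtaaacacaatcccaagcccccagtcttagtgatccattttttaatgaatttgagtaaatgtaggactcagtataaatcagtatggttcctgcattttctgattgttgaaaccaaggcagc
OR3A2: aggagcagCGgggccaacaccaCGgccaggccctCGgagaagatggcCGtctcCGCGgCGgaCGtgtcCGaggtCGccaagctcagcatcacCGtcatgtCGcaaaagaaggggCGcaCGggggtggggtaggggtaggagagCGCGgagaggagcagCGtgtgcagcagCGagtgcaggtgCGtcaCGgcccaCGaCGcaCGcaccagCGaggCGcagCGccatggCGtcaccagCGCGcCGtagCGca
OR5M9 and OR8A1 have 1 CpG each in these bases, although they come from opposite ends of the range of H3K27me3, and OR3A2 has 31. The annotated start of OR3A2 lies 110 kb from the other end of its gene model, so this CpG-rich stretch may be far from the receptor's coding exon.

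The counts of single receptor genes were low. A member had a median of 15 counts in the DMSO input and 17 in the other input, and the summed input of both libraries had a 10th percentile of 20 and a 90th percentile of 50. The 121 members under 1200 bases long that overlap no other gene had a median length of 0.948 kb and a median of 31.7 summed input counts per kb. A group of 15 members was counted over a wider span, with 115 to 4830 summed input counts against at most 84 for the other 288. These 15 genes (OR9Q1, OR5V1, OR4N2, OR2L13, OR7A5, OR52A1, OR11A1, OR8S1, OR51E2, OR13A1, OR51E1, OR8G1, OR2H1, OR2W3 and OR52A4) held 66.9% of the DMSO input counts of the class. The pooled levels of the class are therefore given with and without them. For 144 members the summed input implied, at the rate of the short genes, a span under 50% of the annotated one. The counts of such members need not include the annotated start. In 32 members less than 50% of the span was unshared with other genes, and receptor genes are near-identical copies of each other in places, so that reads of such members may be lost or split.

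In DMSO the receptor class as a whole carried a little more H3K27me3 than input and little H3K4me3. The 303 members held 13128 counts in DMSO input, 17000 in DMSO H3K27me3 and 9252 in DMSO H3K4me3, which is 779.7 (95% interval 766 to 793), 887 and 435 CPM, that is, counts scaled to a common total of reads in genes. In MAK683 they held 15095, 12034 and 9477 counts, or 774, 904 and 483 CPM. In both treatments H3K27me3 was above input and H3K4me3 below it.

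**Figure D1:**
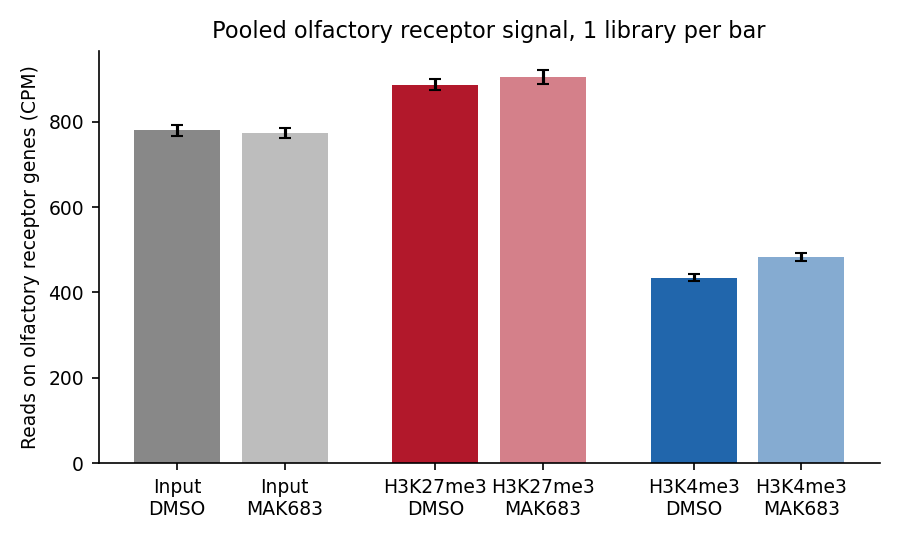
Pooled signal of the 303 olfactory receptor genes (y axis, CPM) in each of the 6 libraries (x axis); each bar is 1 library and error bars are 95% counting intervals. H3K27me3 stands above input and H3K4me3 below it in both treatments, between 435 and 904 CPM.

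On the log2 scale the pooled H3K27me3 level over input was 0.19 (0.15 to 0.22) in DMSO and 0.23 (0.19 to 0.26) in MAK683. Without the 15 wide members it was 0.29 and 0.32. The pooled H3K4me3 level over input was -0.84 (-0.88 to -0.80) in DMSO and -0.68 (-0.72 to -0.64) in MAK683, and -0.68 and -0.43 without the wide members. The same pooled H3K27me3 value in DMSO was 0.82 for 56 keratin genes, 0.82 for 23 HOX genes and -0.74 for 76 ribosomal protein genes. Pooled sums weigh genes by their counts, and by the median of single genes the order was keratin genes at 1.01, receptors at 0.17, HOX genes at -0.58 and ribosomal protein genes at -1.22. By that measure the receptors lay above the HOX genes, of which 6 of 21 had H3K27me3 of at least 2 times input. The promoter comparison held 39 HOX genes and only 23 had input counts here. The part of uncounted HOX rows in this order was not tested. For H3K4me3, HOX genes were at 2.21 and ribosomal protein genes at 3.08 in the pooled value, far above the receptors, and keratin genes at 0.15. The median keratin gene was at -0.72 and the median receptor at -0.73, whereas HOX and ribosomal protein genes had medians of 1.90 and 3.84.

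Single receptor genes spread widely around input, and few had much H3K4me3. The median member was at 0.17 in H3K27me3 in DMSO, against -0.18 for genes in the same range of 20 to 50 input counts and -0.075 for those that also matched the members' range of GC content. For H3K4me3 the medians were -0.73, -0.52 and -0.68, so that the members lay close to genes of like input and GC content. H3K27me3 was above input at 166 of 303 members (54.8%) in DMSO, against 34.3% of all 37470 genes with input counts and 43.1% of 5409 genes in the input range and 47.5% of 1655 that also matched in GC content. H3K4me3 was above input at 56 members (18.5%), against 39.8% of all genes, 30.0% of those in the input range and 23.5% of those matched in both. Among 286 members with at least 10 counts in H3K27me3 or input, 72 (25.2%) had H3K27me3 of at least 2 times input in DMSO, against 15.4% of all genes by the same rule. In MAK683 these were 47 of 284 members (16.5%) against 10.7% of all genes. In the input range the shares were 19.6% and 15.4%, nearer to those of the members. Among genes that also matched in GC content they were 21.9% in DMSO and 16.3% in MAK683, the latter close to the members' 16.5%.

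H3K4me3 of at least 2 times input was found at 4 of 277 members (1.44%) in DMSO, against 23.9% of all genes, 14.4% of genes in the input range and 8.21% of those that also matched the members' range of GC content. Since the counted span of many members need not include the annotated start, these shares describe counted spans and not promoters. The 4 were OR2T10, OR5AP2, OR8B12 and OR1M1, named here after their values were seen. Each rested on 12 to 29 H3K4me3 counts over 3 to 11 input counts, and the interval of OR1M1 alone (log2 from 0.017 to 2.21) did not include input. In MAK683 the count was 4 of 286 (1.40%) against 22.5% of all genes, and these were OR4A47, OR7E24, OR1J1 and OR1L4. No member was in both groups of 4, on these low counts. The same overlap over all genes was not counted, so no weight is put on this. OR7E24 had 38 H3K4me3 counts over 11 input counts in MAK683, and 25 over 25 in DMSO.

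**Figure D2:**
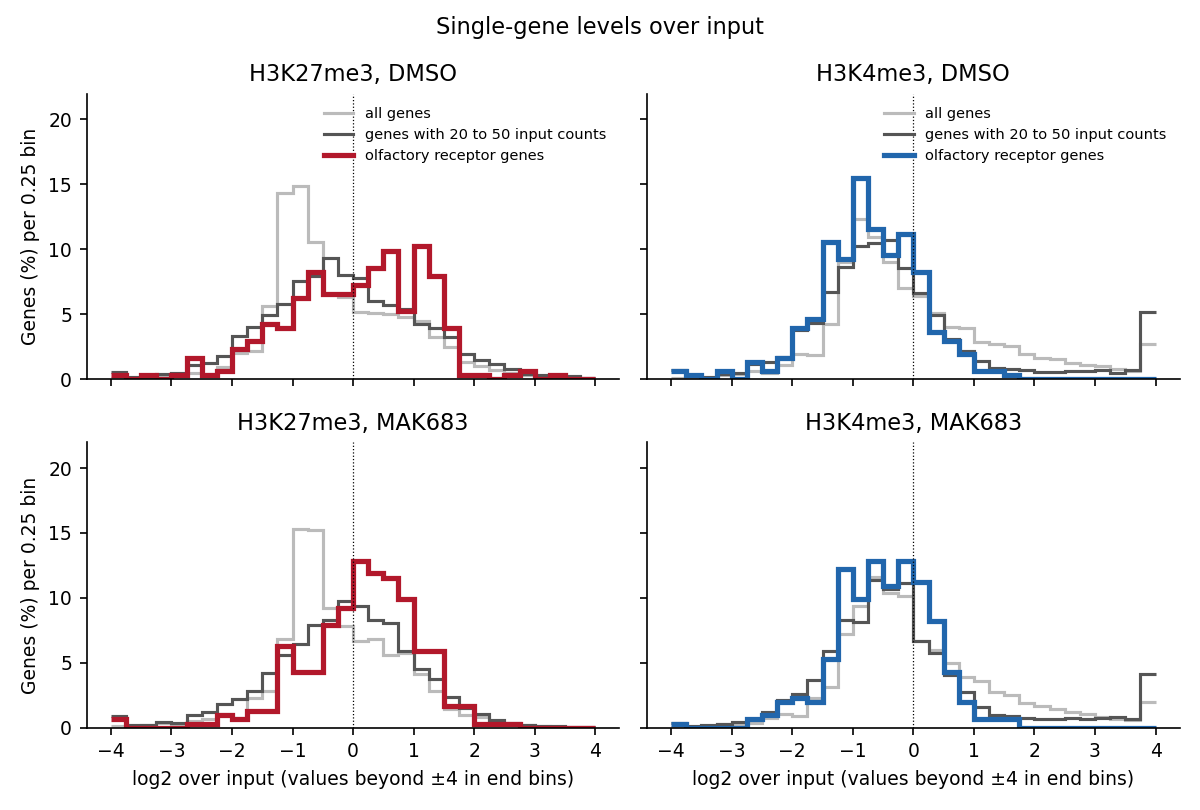
Share of genes (y axis, percent per bin of 0.25) by log2 level over input (x axis) of H3K27me3 (left) and H3K4me3 (right) in DMSO (top) and MAK683 (bottom), for olfactory receptor genes, all genes with input counts, and genes with 20 to 50 input counts. Receptor genes extend above input in H3K27me3 and lack the right tail that other genes have in H3K4me3.

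The level of H3K27me3 differed between genomic clusters of receptor genes. Members less than 500 kb apart on a chromosome were joined, which gave 42 clusters, of which 9 with at least 10 members held 177 members. In DMSO 6 of these 9 clusters were above input in H3K27me3 and 3 were below, and no interval included input. Without the wide members the clusters spanned -0.94 to 1.13 on the log2 scale, a range of 2.06. Their H3K4me3 level over input spanned 0.49, from -0.98 to -0.48, and was below input in all 9.

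The highest levels were found in 4 clusters on chromosomes 11, 9 and 1. The class I cluster, OR52B4 to OR51V1 (chr11:4388493-5221912), holds receptors of the families OR51 and OR52, the fish-like class of receptors, beside the beta-globin locus. Its 17 members held 853 input and 2035 H3K27me3 counts in DMSO, a log2 level of 1.07 (0.95 to 1.18), and 16 of 17 were above input. OR52I1 was the exception, with 17 input and 5 H3K27me3 counts. The cluster OR1J1 to OR5C1 (chr9:125239237-125552174) had 189 input and 429 H3K27me3 counts over 11 members, a level of 0.996 (0.75 to 1.25), with 10 of 11 above input. At OR6X1 to OR8A1 (chr11:123624288-124452838) the level of 21 members was 0.94 (0.78 to 1.11), with 20 of 21 above input, and at OR10T2 to OR6N2 (chr1:158368312-158750994) that of 12 members was 0.89 (0.63 to 1.15), with 10 of 12 above. The level above input was thus shared by nearly all genes of these 4 clusters.

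Lower positive levels were found in 2 clusters. OR9Q1 to OR5B21 (chr11:57791353-58275578) was at 0.48 (0.39 to 0.56) with 11 of 11 members above input, and at 0.85 without OR9Q1, a gene counted over a wide span. OR1D5 to OR1E2 (chr17:2965963-3337135) was at 0.37 (0.057 to 0.68) with 7 of 11 members above input.

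H3K27me3 was below input in the other 3 clusters. OR4A16 to OR5AK2 (chr11:55110677-56757318), just below the centromere on the long arm, is the largest, with 48 members. They held 684 input and 407 H3K27me3 counts in DMSO, a level of -0.94 (-1.12 to -0.76), and 8 of 48 were above input. The cluster OR11H2 to OR6S1 (chr14:20181095-21109850) was at -0.98 (-1.07 to -0.89) with 1 of 18 members above input, OR11H6, and at -0.83 without the wide member OR4N2. The cluster OR2B11 to OR14I1 (chr1:247612420-248845629), at the tip of the long arm, was at -0.82 (-0.92 to -0.72) with 5 of 28 above input, and at -0.50 without OR2W3 and OR2L13. Its outermost gene on the centromeric side, OR2B11, had 19 input and 46 H3K27me3 counts, and OR2T11 had 17 and 42.

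**Figure D3:**
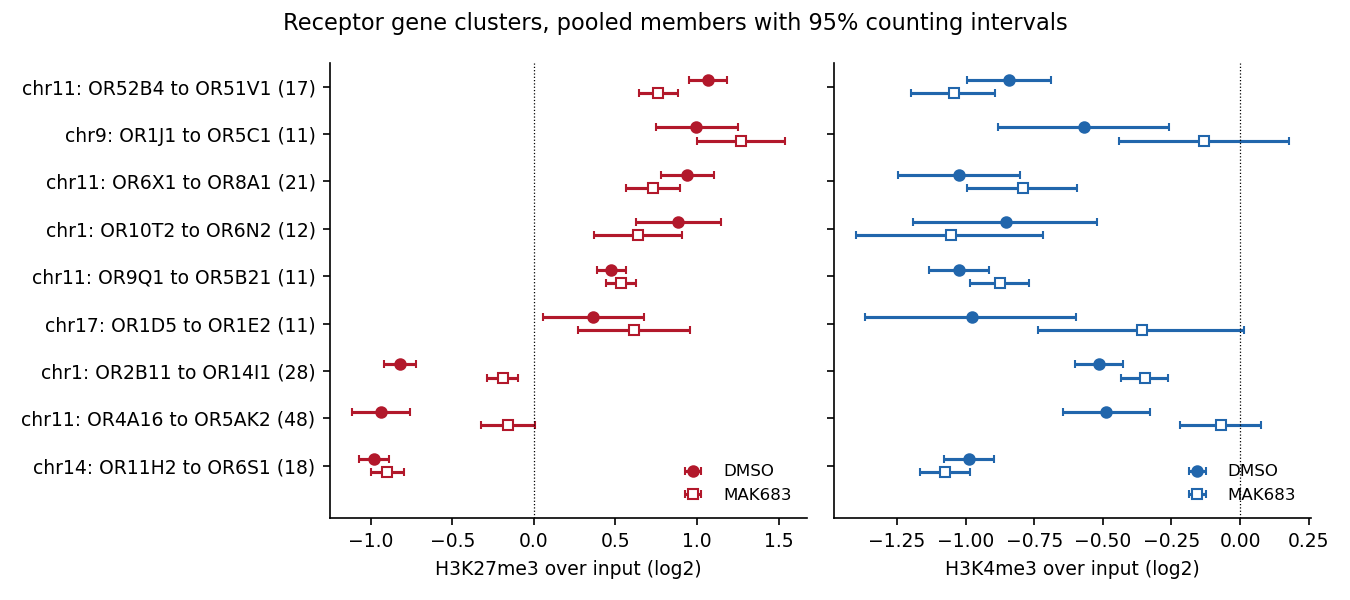
Pooled log2 level over input (x axis) of H3K27me3 (left) and H3K4me3 (right) in the 9 clusters of at least 10 receptor genes (y axis, number of members in brackets), in DMSO (filled circles) and MAK683 (open squares) with 95% counting intervals. The 3 lowest clusters lie between -0.98 and -0.82 in DMSO, and the 4 highest between 0.89 and 1.07.

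Receptors of the same family had different levels in different clusters. Without wide members, 11 receptors of family OR8 in the OR4A16 to OR5AK2 cluster held 150 input and 90 H3K27me3 counts, a level of -0.92 (-1.32 to -0.54). The 9 OR8 receptors in the OR6X1 to OR8A1 cluster, on the same chromosome arm, held 124 and 308 counts, a level of 1.13 (0.82 to 1.44). The 26 OR5 receptors of the first of these clusters were at -0.92 (-1.17 to -0.68), while 5 OR5 receptors in the OR9Q1 to OR5B21 cluster, the next one along the arm, were at 1.14 (0.70 to 1.58). The families OR4 and OR10 lay in clusters of like level, and OR4 was at -1.16 on chromosome 11 and -0.92 on chromosome 14, and OR10 at 1.02 on chromosome 1 and 1.11 on chromosome 11. For OR1, 9 members on chromosome 17 were at 0.39 and 10 on chromosome 9 were at 1.02. The place and the family make-up of a cluster vary together in part, and their shares were not tested.

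Class I receptors were at 1.02 (0.91 to 1.14) over 23 members in DMSO and class II at 0.094 (0.059 to 0.13) over 280, a difference of 0.93 (0.82 to 1.05). Without the wide members the levels were 0.88 and 0.24. Since 17 of the 23 class I genes lie in 1 cluster, class and place cannot be told apart. In H3K4me3 the classes were at -0.86 and -0.84.

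Among 13 clusters of 5 to 9 members, with 91 members in all, 9 were above input in H3K27me3 in DMSO. The highest was OR9K2 to OR10P1 on chromosome 12 (9 members, 1.08), and the lowest was OR4B1 to OR4A47 (chr11:48238362-48511274, 7 members, -0.83), on the short arm across the centromere from the low OR4A16 to OR5AK2 cluster. The cluster OR2W1 to OR2H1 beside the MHC on chromosome 6 (9 members) was at 0.68. Of its members, 3 were counted over a wide span and weigh on this pooled value, and the median member was at 0.74.

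Receptor pseudogenes inside the clusters mostly lay on the same side of input as the receptor genes, and other genes there were often nearer to input. The 9 large clusters also held 107 receptor pseudogenes, which carry no intact coding exon, and 41 other genes with input counts. In the OR4A16 to OR5AK2 cluster 50 pseudogenes were at -0.89 (-1.05 to -0.73), beside -0.94 for the receptors. In the OR6X1 to OR8A1 cluster 21 pseudogenes were at 1.08 (0.87 to 1.28), beside 0.94, and in the class I cluster 11 were at 1.31 (1.02 to 1.60), beside 1.07. An exception was the OR9Q1 to OR5B21 cluster, whose 6 pseudogenes were at -0.19 (-0.62 to 0.24) while its receptors were at 0.48. Over the 6 clusters with at least 50 DMSO input counts in pseudogenes, Pearson's r between pseudogenes and receptors without wide members was 0.88 and Spearman's rho 0.71. For other genes in 6 clusters they were 0.90 and 0.71, although their levels differed from those of the receptors. Other genes were at -0.039 (-0.19 to 0.11) in the OR2B11 to OR14I1 cluster, where the receptors were at -0.82, or -0.50 without wide members. In the OR4A16 to OR5AK2 cluster the other genes were at -0.29 (-0.69 to 0.10). In the class I cluster they were at 0.66 (0.60 to 0.73), and in the OR6X1 to OR8A1 cluster at 0.58 (0.40 to 0.76). Each of these values rests mostly on 1 gene. In that order, GCSAML held 612 of 717 DMSO input counts, TRIM51 90 of 112 and MMP26 2913 of 3228. VWA5A held most of those in the last cluster, with 354. The r and rho of other genes therefore rest on few genes. Neighbouring rows share libraries, copy number and base composition, and these values are a description.

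H3K4me3 above input was found at some protein-coding genes between the receptors. In the chromosome 14 cluster, 20 other rows, of which 12 were protein-coding, had a pooled level of -1.01 in H3K27me3 and 1.26 in H3K4me3. A few genes carried the latter, since the median of these rows was -0.48, and among them were APEX1, a DNA repair endonuclease, and PNP, a purine enzyme, with H3K4me3 of 4.30 and 3.53 over input. In the class I cluster, MMP26, a matrix metalloproteinase gene that spans many receptors, was at 0.69 in H3K27me3, and TRIM21 and TRIM68, ubiquitin ligases, were at -0.78 and -1.002 with H3K4me3 of 1.32 and 1.59. A low H3K27me3 level at these single genes thus stood inside a high cluster.

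**Figure D4:**
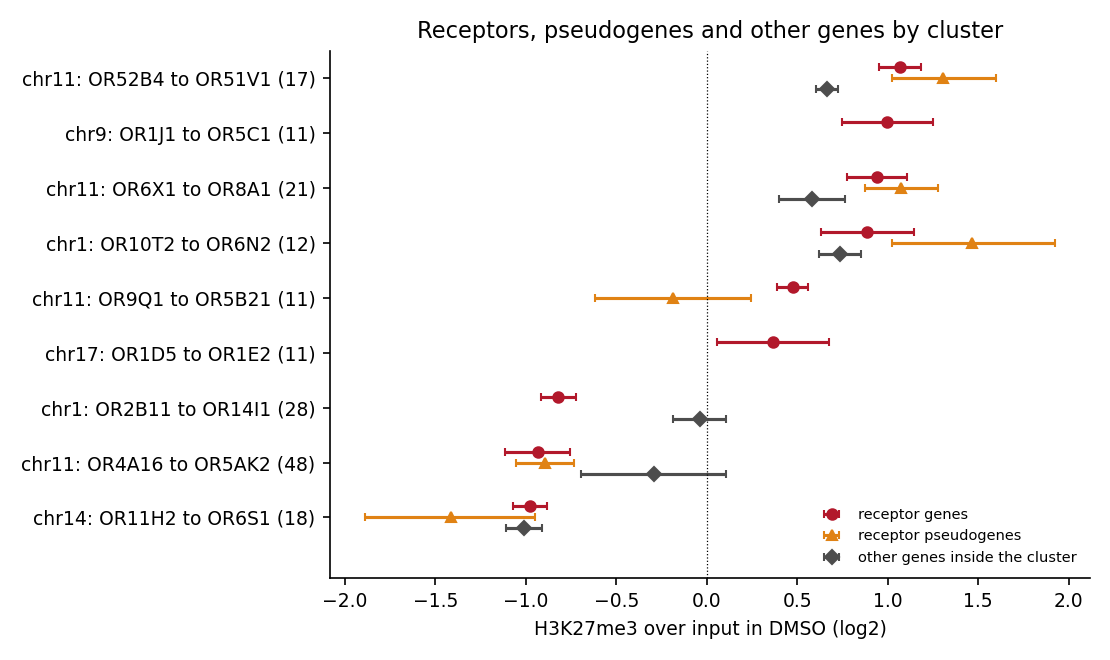
Pooled H3K27me3 over input in DMSO (x axis, log2, with 95% counting intervals) of receptor genes, receptor pseudogenes and other genes inside each of the 9 clusters (y axis, number of receptor genes in brackets), for rows with at least 50 DMSO input counts. Pseudogenes lie on the same side of input as the receptors in 5 of 6 clusters, and at -0.19 against 0.48 in the OR9Q1 to OR5B21 cluster.

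Over the 9 large clusters, Pearson's r between the median GC content of the members and H3K27me3 over input in DMSO without wide members was 0.38, and Spearman's rho was 0.40. Over 287 members without the wide ones and with a position, Spearman's rho between GC content of the gene and H3K27me3 over input in DMSO was 0.13, and for H3K4me3 it was -0.012. These members share libraries and depth, and counts this low weaken any correlation.

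After MAK683 the share of H3K27me3 reads on the class changed little, while its distribution among clusters became flatter. The deposited counts carry no spike-in scaling, so a comparison in CPM shows how the reads of a library were spread over genes and cannot show how much of the mark was lost. The pooled H3K27me3 change in CPM was 0.028 (-0.0062 to 0.061) on the log2 scale, with 17000 counts in DMSO and 12034 in MAK683. In the counts as deposited it was -0.50, and the H3K27me3 libraries as a whole differed by -0.53. The input change was -0.011 (-0.045 to 0.022).

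Of the 3 clusters low in DMSO, 2 gained in share with intervals above the median gene's H3K27me3 change in CPM of 0.11. Without the wide members, only OR4A16 to OR5AK2 did. At OR4A16 to OR5AK2 the members held 407 H3K27me3 counts in DMSO and 474 in the smaller MAK683 library, a change of 0.75 (0.55 to 0.94), and the level over input went from -0.94 to -0.16 (-0.33 to 0.0078). The change was above 0 at 41 of 48 members, against 59.2% of all genes, among them OR5I1 with 3 and 16 counts and OR4C6 with 4 and 22, picked as examples after their values were seen. Its pseudogenes changed by 0.63 (0.45 to 0.80). At OR2B11 to OR14I1 the change was 0.59 (0.48 to 0.69), or 0.32 (0.065 to 0.57) without the wide members, and 17 of 28 members were above 0, a share near that of all genes, and the second interval included the median gene's 0.11. The chromosome 14 cluster changed by 0.14 (0.026 to 0.25), or 0.39 (0.095 to 0.69) without OR4N2, and stayed at -0.90 over input, and its interval included the median of all genes with and without OR4N2. With median-of-ratios scaling, described below, the changes of these 3 clusters were 0.54, 0.38 and -0.067, so that the direction at chromosome 14 depends on the scale, and without wide members 0.54, 0.11 and 0.18. At OR4B1 to OR4A47 the change was 0.97.

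The clusters high in DMSO kept their level or fell slightly. The class I cluster changed by -0.18 (-0.29 to -0.082) and remained at 0.76 over input, with -0.017 (-0.25 to 0.22) when its 4 wide members were left out. The clusters OR10T2 to OR6N2 and OR6X1 to OR8A1 changed by -0.17 (-0.41 to 0.063) and -0.075 (-0.22 to 0.071), and OR1J1 to OR5C1 by 0.020 (-0.20 to 0.24), with intervals that included 0. With median-of-ratios scaling the changes of these 4 clusters were all below 0, from -0.39 to -0.19. The order of the 9 clusters was similar in both treatments (Spearman's rho 0.92, without wide members), and the SD among them was 0.85 in DMSO and 0.58 in MAK683. All genes narrowed too, from a 10th to 90th percentile of -1.34 to 1.27 in DMSO to -1.20 to 1.09 in MAK683. The DMSO counts that name a cluster low or high also enter its change, so the contrast between low and high clusters is a description.

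At the level of single genes, H3K27me3 fell at least 2-fold at 14 of 263 members with at least 10 counts (5.32%, all genes 2.88%) and rose at least 2-fold at 32 (12.2%, all genes 3.96%). Among genes in the input range the shares were 9.20% and 12.2%, and the members' shares were at or below these. None of the 15 wide members was called in either direction. With median-of-ratios scaling, which centres on the typical gene, 24 members were lower and 29 higher, and in the counts as deposited 51 were lower and 15 higher. The share of all genes was not counted under these scalings, so no weight is put on these numbers.

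H3K4me3 over the class was slightly higher in share after MAK683. The pooled change was 0.15 (0.11 to 0.19), and 0.23 without the wide members, with 9252 and 9477 counts. With median-of-ratios scaling the change was -0.034, so its direction depends on the scale: this scaling shifts H3K4me3 changes of all genes by -0.19 and H3K27me3 changes by -0.21. H3K4me3 fell at least 2-fold at 17 of 259 members (6.56%, all genes 1.79%) and rose at least 2-fold at 46 (17.8%, all genes 4.22%), with 6.01% and 14.6% of genes in the input range. With median-of-ratios scaling, 25 members were lower and 32 higher, and the share of all genes was not counted under this scaling. In MAK683, 83 of 303 members (27.4%) were above input in H3K4me3, against 41.5% of all genes and 32.6% of those in the input range. Of the genes that also matched in GC content 26.9% were above input, near the members' share.

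The OR4A16 to OR5AK2 cluster had a pooled H3K4me3 change of 0.38 (0.23 to 0.54), with 34 of 48 members above 0 against 52.5% of all genes and 54.3% of those in the input range, and its level over input went from -0.49 to -0.071. The class I cluster changed by -0.081 (-0.25 to 0.091). In the first of these clusters the pooled level of both marks moved toward that of input, and the part of antibody enrichment in this was not tested. Its families differed in H3K27me3 after MAK683. The 11 OR8 receptors were above input at 0.47 (0.13 to 0.80), with 9 of 11 above. The 26 OR5 receptors stayed below it at -0.46 (-0.70 to -0.22).

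Receptors known outside the nose or by their ligand were mostly counted thinly. OR51E2, the prostate-specific receptor PSGR (chr11:4701401-4719084), had 197 input, 469 H3K27me3 and 134 H3K4me3 counts in DMSO, against 238, 266 and 93 after treatment. Its H3K27me3 level was 1.06 (0.82 to 1.31) in DMSO, and both marks were lower after MAK683, by -0.29 (-0.51 to -0.072) and -0.41 (-0.81 to -0.018). Its neighbour OR51E1 (chr11:4664650-4676718), also expressed in prostate, had 148, 435 and 96 counts in DMSO and 135, 279 and 115 in MAK683, a level of 1.37 (1.10 to 1.65). Its H3K27me3 change was -0.11 (-0.34 to 0.11) and its H3K4me3 change 0.38 (-0.026 to 0.78). These neighbouring paralogs had overlapping intervals of the H3K27me3 level, and their H3K4me3 changes had opposite signs.

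OR2W3 (chr1:248058889-248059833) had 129 input, 98 H3K27me3 and 128 H3K4me3 counts in DMSO and 160, 107 and 163 in MAK683. Its H3K27me3 level was -0.58 (-0.98 to -0.19), and its changes were 0.65 (0.24 to 1.06) in H3K27me3 and 0.47 (0.12 to 0.81) in H3K4me3. The annotated span of OR2W3 is 0.945 kb, whereas its input counts were those of 9.10 kb at the rate of short receptors, so they need not come from the receptor alone. It had the highest H3K4me3 over input after MAK683 of the 32 members with at least 50 summed input counts.

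OR1D2, a receptor for bourgeonal also found in sperm, had 9 input, 28 H3K27me3 and 12 H3K4me3 counts in DMSO and 7, 19 and 10 in MAK683, with an H3K27me3 level of 1.45 (0.33 to 2.72). OR10G4, a receptor for guaiacol, had 11, 32 and 5 and then 19, 13 and 11, a level of 1.35 (0.33 to 2.49). OR2AT4, a sandalwood odorant receptor of skin, had 17, 42 and 10 and then 17, 34 and 18, a level of 1.12 (0.27 to 2.02), and OR2T11, a receptor for thiols, had 17, 42 and 19 and then 19, 19 and 17, also 1.12. These 4 were the known receptors with few counts whose H3K27me3 interval excluded input. For OR1A1, OR7D4 (androstenone), OR5AN1 (muscone), OR5A1 (beta-ionone), OR6A2, OR2J3 and OR10H1 the level lay between -1.09 and 0.44, and every interval included input. Their changes were not detectable at this depth in H3K27me3, since all 7 intervals included 0, and in H3K4me3 OR2J3 alone was lower, with 14 and 4 counts.

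Among the 32 members with at least 50 summed input counts, the highest H3K27me3 levels in DMSO were those of OR2H1, OR51E1, OR2W5, OR13A1 and OR6K6. OR2H1 (chr6:29424932-29432105), near the MHC, had 87 input, 258 H3K27me3 and 59 H3K4me3 counts in DMSO and 92, 128 and 68 in MAK683, a level of 1.38 (1.03 to 1.75). It had the largest decrease in H3K27me3 among 17 members with a mean of at least 50 counts, -0.49 (-0.80 to -0.17). OR13A1 had 173 and 443 input and H3K27me3 counts in DMSO, a level of 1.17 (0.91 to 1.43), and OR52A4, OR51E2, OR13A1 and OR52A1 followed OR2H1 in the size of the decrease, at -0.39 (-0.96 to 0.16), -0.29, -0.24 and -0.23. Of the 5 largest decreases, 3 were class I genes of 1 cluster, which changed by -0.017 (-0.25 to 0.22) without its wide members. The share of class I genes among the 17 was not set beside this.

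The lowest levels in DMSO were those of OR11L1, OR5M9, OR2B3, OR4C3 and OR7D2. OR11L1 (chr1:248004230-248005198) had 32 counts in DMSO input and 4 in DMSO H3K27me3, against 22 and 18 after MAK683, a level of -3.19 (-5.15 to -1.69) and a change of 2.70 (1.09 to 4.72). OR5M9, whose upstream bases are printed above, had 22 and 3 and then 29 and 9 counts, a level of -3.06 (-5.44 to -1.33) and a change of 2.11 (0.11 to 4.63). These 5 genes were chosen for their low DMSO value, so a rise after it is a description with no weight of its own.

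The largest increases in H3K27me3 among well-counted members were at OR2W3 (0.65) and OR2L13 (0.65, 0.53 to 0.77), both in the low chromosome 1 cluster. OR2L13 (chr1:248258486-248264465) had 1729 input and 1044 H3K27me3 counts before, against 1959 and 1136 after MAK683. Like OR2W3 it was counted over a wide span, so these counts need not come from the printed coordinates alone. OR1N1, OR4N2 and OR5V1 followed at 0.31, 0.095 and 0.059, with intervals that included 0. In H3K4me3, among 14 members with a mean of at least 50 counts, the largest increase was at OR8S1, 0.78 (0.50 to 1.06), from 174 to 275 counts with 268 and 348 input counts. It was followed by OR2W3, OR5V1 (0.40, 0.21 to 0.59), OR51E1 and OR2H1 (0.32, -0.20 to 0.85), and the decreases were at OR51E2, OR52A1 (-0.24, -0.53 to 0.056) and OR4N2 (-0.086). OR11A1 and OR9Q1 completed that ranking with changes of 0.025 and 0.044. The H3K4me3 level of OR8S1, counted over an implied 19.4 kb, stayed below input in both treatments.

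Of the genes that act downstream of the receptors, 14 were listed and 11 had input counts. OMP, the olfactory marker protein, GNG13, a G protein gamma subunit, and RTP1, which helps receptors to the cell surface, were at 0 in all 6 libraries. H3K27me3 was at least 2 times input at 3 of 11 in DMSO, against 15.4% of all genes, and the median log2 level was 0.47 against -0.56 for all genes. The 3 were ANO2, the olfactory chloride channel (5057 input and 15619 H3K27me3 counts, 1.44), SLC24A4, the calcium exchanger of the cilium (2214 and 5623, 1.16), and RTP2, a receptor transport protein (34 and 181, 2.20). GNAL, the olfactory G protein alpha subunit, was at 0.47, and CNGA2, the cation channel subunit, at 0.80 on 42 input counts. STOML3 was at 0.81, which made 6 of the 11 above input. Below input were the adenylyl cyclase ADCY3 at -0.88, CNGB1 at -0.80, RIC8B at -1.11, REEP1 at -0.15 and CNGA4 at -0.086. None of the 11 changed 2-fold in either mark.

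Of 9 regulators of receptor choice, 8 had input counts, and 3 of the 7 with at least 10 counts had H3K27me3 of at least 2 times input in DMSO, against the same 15.4% of all genes. EMX2, a homeobox factor of olfactory epithelium and kidney, had 55 input, 473 H3K27me3 and 61 H3K4me3 counts in DMSO and 56, 222 and 189 in MAK683, a level of 2.90 and changes of -0.56 in H3K27me3 and 1.73 in H3K4me3. It was the regulator with a 2-fold rise in H3K4me3. EBF1 and EBF2, factors that bind receptor promoters in the nose, were at 1.16 and 1.41 in DMSO and 1.02 and 1.22 in MAK683. LHX2 and LDB1, partners at the receptor enhancers, were instead rich in H3K4me3, at 2.21 and 3.43 over input, and low in H3K27me3, at -0.32 and -1.55. KDM1A, the demethylase whose gene is used in most cells, had 8 input and 635 H3K4me3 counts.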

How the data were processed

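The authors trimmed paired reads with Trim Galore 0.4.4, aligned them with Bowtie2 to hg19 and depleted repeats with Picard 2.23.6. They deposited featureCounts counts per gene with no further scaling, 1 library per treatment and antibody. Their Drosophila spike-in factors were not used here. The gene annotation they counted on is not given in the sources used here. Tools are credited to the submitters' processing notes.

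From these counts, levels were computed as log2 of CPM over input (0.05 CPM added for single genes, nothing for pooled sums) and changes as log2 of MAK683 over DMSO with 1 count added and library totals removed. A 2-fold call needed at least 10 counts in 1 of the 2 libraries compared. Intervals are 95% Clopper-Pearson intervals of counts, with exceptions. Intervals of CPM are exact Poisson intervals, and that of the difference between class I and class II is a normal approximation. Positions came from GENCODE 44 on GRCh37, matched by symbol (33514 rows) or older symbol (1810), which is 62.4% of the table. Python 3.11.15, pandas 2.3.3 and scipy 1.17.1 were used, and the scripts were tested on simulated data.

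Members and lists were chosen with earlier results of these data known. Members named were the 5 highest and 5 lowest in H3K27me3 and the 5 highest in H3K4me3 over input among those with at least 50 summed input counts, the 5 largest increases and decreases of each mark among those with a mean of at least 50 counts, and 14 receptors with known ligands or expression outside the nose. Single-gene levels printed with an interval have no added CPM. Other scalings, filters and sets of members were tried as alternatives. Depth sets the precision: 3 counts correspond to 0.141 to 0.225 CPM.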

Additional observations from a re-analysis of the deposited data

How the results depend on the processing

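No paired analysis was possible because each treatment and antibody has 1 library, and no replicate could be left out. Of 299 alternatives, 216 kept their value within the counting interval or within 1.5 times the count, 82 moved and 1 reversed. For the main results 48 kept their value, 46 moved and 1 reversed. For single named genes, whose intervals are often wide, 168 kept their value and 36 moved. The cause of the moves was not tested beyond what each setting removes. The number of large clusters above input, 6 of 9, was the same in all 3 settings tried, and the H3K27me3 level of all 9 clusters kept its sign.

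Median-of-ratios scaling, which shifts H3K27me3 over input by 0.43 in DMSO and 0.24 in MAK683 for every gene, gave pooled levels of 0.62 and 0.46 for H3K27me3 and -0.60 and -0.61 for H3K4me3. The pooled H3K27me3 change became -0.18 and that of H3K4me3 reversed to -0.034. It left 24 members at least 2-fold lower in H3K27me3 and 10 with H3K4me3 at 2 times input in DMSO. Without the 10 members with most counts, H3K27me3 was 0.36 in DMSO and 0.36 in MAK683, H3K4me3 -0.74 and -0.51, and the changes -0.016 and 0.24. With at least 50 summed input counts, the levels were 0.11, 0.16, -0.94 and -0.82. Under 100 summed input counts, a setting chosen after seeing the data, they were 0.29, 0.32, -0.68 and -0.43, the H3K4me3 change was 0.23 and the class difference 0.64. Medians over members gave -0.73 and -0.47 for H3K4me3, and changes of 0.067 and 0.20. The counts as deposited gave changes of -0.50, 0.035 and 0.20 for H3K27me3, H3K4me3 and input, with 51 members lower and 15 higher in H3K27me3.

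A minimum of 50 counts left 0 calls in all 4 directions of change and 0 for H3K4me3 at 2 times input in either treatment, and 15 members with H3K27me3 at 2 times input. A pseudocount of 1 CPM left 2 lower and 1 higher in H3K27me3, 0 lower and 1 higher in H3K4me3, 12 with H3K27me3 at 2 times input, and 0 with H3K4me3 at 2 times input in either treatment. Single-gene calls thus rest on low counts, and they are calls on the value alone, with no interval required to exclude 2-fold or 0. The share of all genes was not counted under any of these other settings.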

Other observations

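The 312 receptor pseudogenes with input counts had a pooled H3K27me3 level over input of 0.46 (0.40 to 0.51) in DMSO and 0.41 (0.36 to 0.47) in MAK683, and an H3K4me3 level of -0.49 (-0.55 to -0.43) in DMSO. Of 244 pseudogenes with at least 10 counts, 13 (5.33%) had H3K4me3 of at least 2 times input in DMSO, against 4 of 277 receptor genes. By the same rule it was 23.9% of all genes, and 8.21% of genes in the receptors' range of input and GC content. In MAK683 it was 9 of 257 pseudogenes (3.5%), against 4 of 286 receptor genes and 22.5% of all genes.

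Other chemosensory receptors differed among themselves in DMSO. The 9 bitter taste receptors (TAS2R) with input counts were at 1.01 (0.66 to 1.36) in H3K27me3 and 0.51 (0.17 to 0.86) in MAK683. The 7 trace amine receptors (TAAR), which lie in 1 family cluster and also serve the nose, were at 1.14 (0.90 to 1.38) in DMSO and 1.05 (0.79 to 1.32) in MAK683, with 500 H3K27me3 counts over 200 input counts and an H3K4me3 level of -1.56. The 3 sweet and umami receptors (TAS1R) were at 0.18 (0.0087 to 0.36). The 4 vomeronasal receptors (VN1R), remnants of the pheromone receptor family, were at -0.75 (-1.26 to -0.24) with 57 H3K27me3 counts over 84 input counts, and at -0.045 (-0.48 to 0.39) in MAK683.

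The receptor row OR8B12 had 3 counts in the DMSO input and 23 in the MAK683 input, against 19 and 6 for OR1J1. The pooled input change of their clusters was 0.14 (OR6X1 to OR8A1) and -0.25 (OR1J1 to OR5C1).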
